A study of Mus musculus with 29 samples.

Results

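The 8 genes Proc, Thbd, F3, F10, Tfpi2, Plau, Plaur and Plat, of blood coagulation and plasminogen activation, were read from a table of 24421 genes by their symbols and followed through 29 RNA-seq libraries. The libraries came from female C57BL/6J mice, 5 to 6 weeks old at the start, that carried YTN16, a transplantable mouse gastric cancer line, injected into the peritoneal cavity. RNA was taken from the stripped peritoneum with or without tumor nodules, which the labels call tumor tissue, and 1 library was made per mouse. At day 21 there were 5 untreated mice, given PBS, and 5 mice given anti-PD1 and anti-CTLA4 antibodies together (dual ICI, immune checkpoint inhibition). At day 35 there were 5 untreated mice, 5 given anti-PD1, 4 given anti-CTLA4 and 5 given dual ICI. The dual ICI mice at day 35 were divided into 2 uncured and 3 cured mice by taking the library numbers as the mouse numbers of the study, since the labels give treatment and day only. The study counted 1 anti-PD1 mouse as cured, and the labels do not say which. The design asks what checkpoint blockade, alone or combined, changed in the peritoneum before the outcome was known (day 21) and after it (day 35).

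Coagulation starts when F3 (tissue factor), a membrane receptor, binds factor VII and activates factor X, the product of F10, which then makes thrombin. Tfpi2 encodes a Kunitz-type protease inhibitor of the tissue factor pathway inhibitor family. Thbd (thrombomodulin), a receptor of endothelium and mesothelium, turns thrombin into the activator of protein C, which Proc encodes and which inactivates clotting cofactors; most circulating protein C and factor X come from the liver. On the other side, Plau (urokinase, uPA) and Plat (tissue plasminogen activator, tPA) cut plasminogen to plasmin, the protease that dissolves fibrin, and Plaur (uPAR) holds urokinase at the cell surface. Tumor cells and leukocytes are known to carry F3 and Plaur.

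On GRCm38, with gene models of GENCODE vM21, F3 lies at chr3:121723537-121735048 (plus strand), F10 at chr8:13037308-13056676 (plus) and Plat at chr8:22757727-22782844 (plus). Plau lies at chr14:20836660-20843385 (plus), Plaur at chr7:24462484-24475968 (plus), Thbd at chr2:148404466-148408188 (minus) and Tfpi2 at chr6:3962595-3988919 (minus). None of the 8 overlapped another gene model.

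The proximal promoters of F3, Plaur and Tfpi2 are shown, since F3 and Plaur moved together most closely among the 8 genes and Tfpi2 followed F3. Proc and Plat moved with F3 and Plaur as well, but no promoter was matched for them. The windows shown are therefore not the full set of genes that moved together. Each line holds the 250 bases before a RefSeq transcript start (GRCm38.p6), 5′ to 3′ on the strand of the gene, with matches of the AP-1 motif TGANTCA (N is any base, and the reverse complement has the same form) in capitals.
F3 promoter, chr3:121723287-121723536, plus strand: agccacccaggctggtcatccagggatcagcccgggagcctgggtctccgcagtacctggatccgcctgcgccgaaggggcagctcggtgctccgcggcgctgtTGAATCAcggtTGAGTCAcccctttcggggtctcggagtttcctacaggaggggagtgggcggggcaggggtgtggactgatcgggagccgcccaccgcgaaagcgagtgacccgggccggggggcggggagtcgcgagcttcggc
Plaur promoter, chr7:24462233-24462482, plus strand: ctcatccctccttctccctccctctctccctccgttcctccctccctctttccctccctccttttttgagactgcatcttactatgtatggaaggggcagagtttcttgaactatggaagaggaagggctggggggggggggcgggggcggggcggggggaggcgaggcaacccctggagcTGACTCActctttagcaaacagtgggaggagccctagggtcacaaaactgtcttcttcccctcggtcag
Tfpi2 promoter, chr6:3968376-3968625, minus strand: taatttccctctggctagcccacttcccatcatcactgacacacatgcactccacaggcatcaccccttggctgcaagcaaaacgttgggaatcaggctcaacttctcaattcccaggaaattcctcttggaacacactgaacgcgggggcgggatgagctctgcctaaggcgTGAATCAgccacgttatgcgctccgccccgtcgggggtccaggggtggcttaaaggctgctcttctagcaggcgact
The F3 window held TGAATCA 146 bases and TGAGTCA 135 bases before the start. The Plaur window held TGACTCA 69 bases before it, and the Tfpi2 window TGAATCA 77 bases before it. The motif was found in 6.75% of 32851 promoter windows of the same length. The SP1 motif GGGCGG was found 3 times before F3, 3 times before Plaur and 2 times before Tfpi2 on either strand, and in 32.7% of all windows. The EGR1 motif GCGNGGGCG was found before Plaur and Tfpi2, overlapping SP1 matches, and in 4.70% of all windows. The windows of F10 and of the other 2 starts of Tfpi2 held none of these motifs, and 4 of the 8 genes were matched in the promoter table. The STAT motif TTCNNNGAA and the TATA box TATAAA were found in none of the windows read here, and in 7.02% and 12.4% of all windows. An NF-kB motif, kept by name without its letters, had no listed match here and was found in 7.25% of all windows. Since its letters are not known, the missing match is not read as a lack of such a site. A match is a string of letters, and binding was not measured.

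The libraries held between 25989217 and 31219650 counts. Levels are in CPM, the count expected in a library of 1000000 after TMM scaling over all 29 libraries, as mean ± SD over mice. Marker genes of gastric epithelium (12 genes, summed) were at 20.1 to 97.4 CPM in the 3 cured libraries, with Tff1, Gkn1 and Muc5ac at 0 counts, against 1155 to 3924 CPM in untreated mice at day 35; the cured libraries therefore went against the tissue label. Skeletal muscle markers (12 genes) summed to 212392 to 247060 CPM in the cured libraries and to 32784 to 173383 CPM in untreated mice at day 35. Library 5 of the anti-PD1 group stood apart from the other 4, with 62.3 CPM of gastric markers against 2892 to 3760 CPM and 222675 CPM of muscle markers against 29266 to 75178 CPM. Results of the 8 genes in that group are given with and without this library where it changed them. Libraries of day 21 and day 35 carry identifiers of different series, so day and library series cannot be told apart. In bulk RNA, fewer cells of a type and less RNA per cell cannot be told apart either.

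Per kilobase of exon, the median level over the 29 libraries was highest for Thbd, at 20.6 CPM per kb, followed by F3 at 17.5 and Plau at 15.8. Plat stood at 9.42 CPM per kb and Plaur at 9.10, whereas Tfpi2 was at 1.95, F10 at 1.15 and Proc at 0.492. The receptors Thbd and F3 and the activator Plau were thus well above the 3 lowest genes on this scale. In the order of the 7 group means, the cured group did not overlap its neighbor for Proc, F3, Tfpi2, Plau, Plaur and Plat. The other neighbors of these 6 genes, and all neighbors for F10 and Thbd, overlapped in range. The share of all genes with such a gap beside the cured group was not computed. Between untreated mice of day 35 and cured mice alone, 47.2% of all genes tested did not overlap. Groups further off in the order of means could still reach the cured values. Anti-PD1 library 5 lay within the cured range for Proc, F3 and Tfpi2. Untreated mouse 2 of day 21 had 100.7 CPM of Plau, above every cured mouse.

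**Figure D1:**
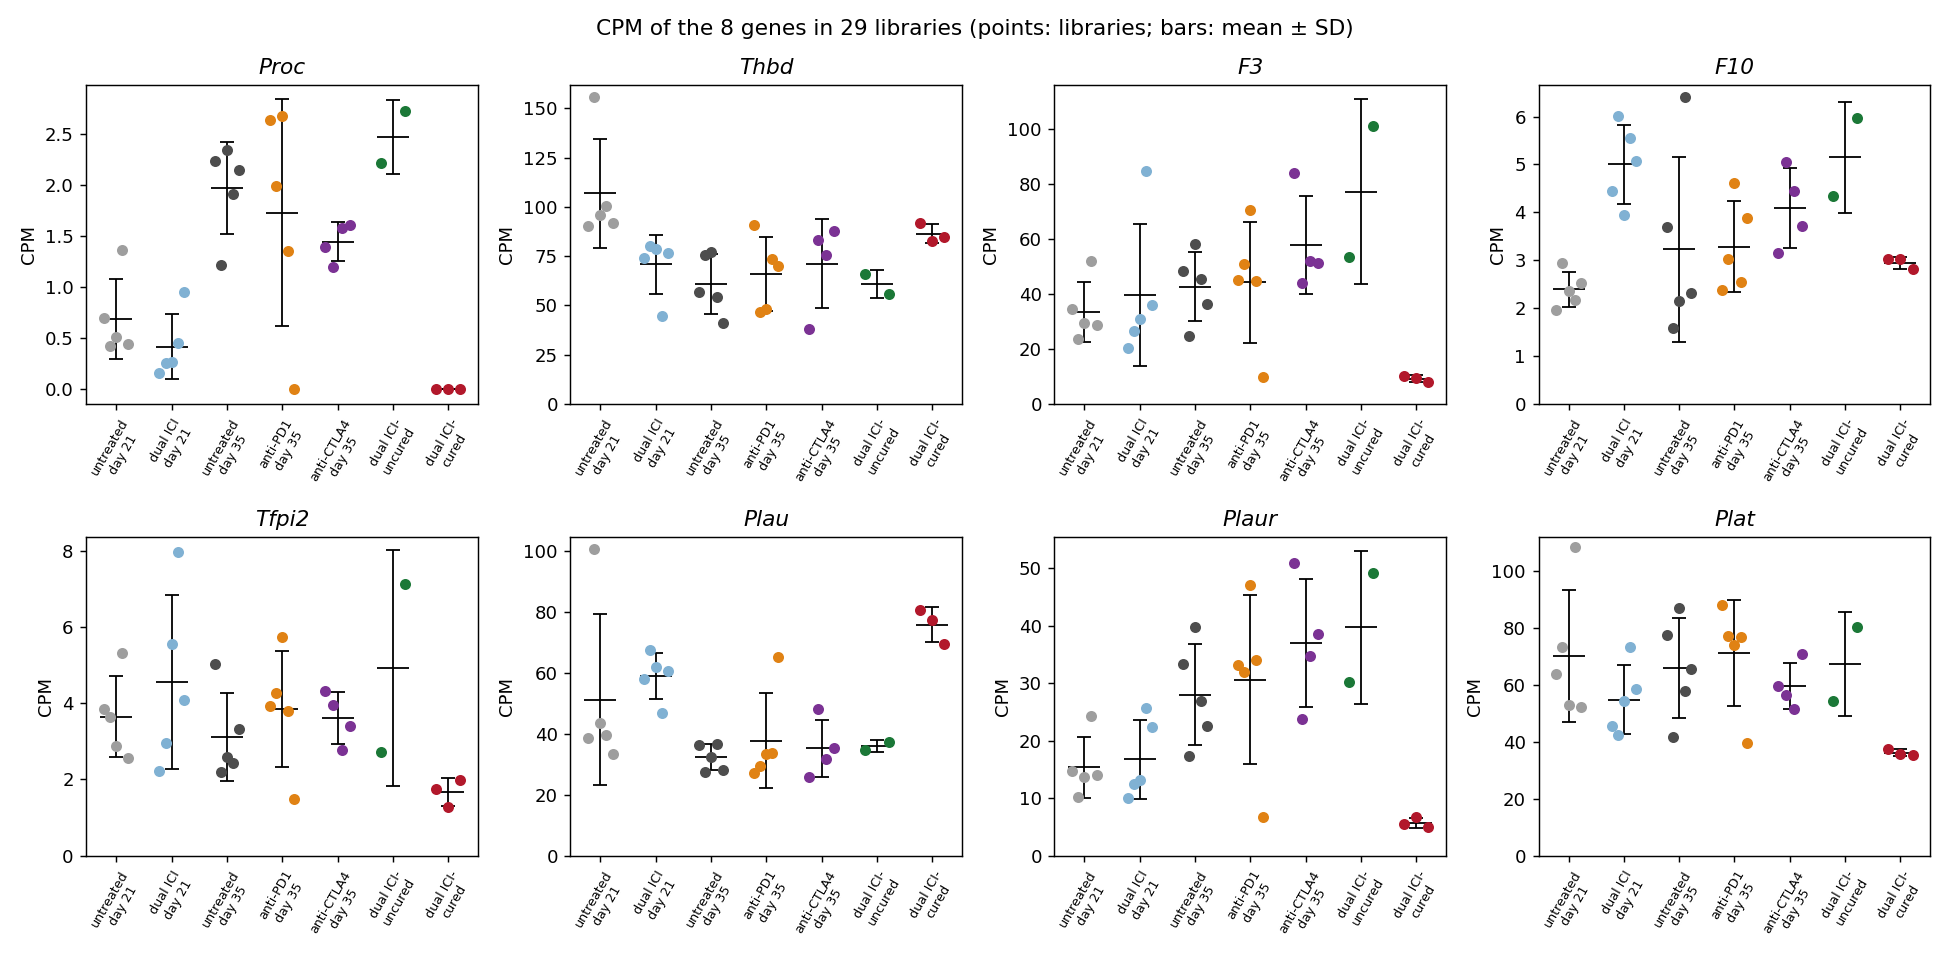
CPM of each gene (y axis, linear, a panel per gene) in the 29 libraries by group (x axis); each point is a library and bars give the mean ± SD. Proc, F3 and Plaur were lowest in the 3 dual ICI-cured mice (at 0, 7.89 to 10.3 and 4.99 to 6.67 CPM) and Plau was highest there (69.5 to 80.5 CPM) among the day 35 groups, with anti-PD1 library 5 close to the cured values.

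Against the cured mice, F3, Plaur, Plat and Proc were higher and Plau was lower in the untreated mice at day 35. Of the 8 genes, 5 passed the test (edgeR, adjusted p under 0.05 over all genes tested), 4 higher and 1 lower. Of all 15816 genes tested 44.7% passed it, 26.7% higher and 18.0% lower. The ranges of 7 of the 8 genes did not overlap, which held for 47.2% of all genes. The genes that passed were 4219 genes higher and 2848 lower, and 7386 and 1187 when libraries were scaled by their totals alone, which moved the median log2 fold change of all genes from 0.05 to 0.64. Under that scaling 5 of the 8 genes were higher and 1 was lower. A share of 5 in 8 is not far from the background, so the sizes are given for each gene. Anti-PD1, anti-CTLA4 and uncured mice were compared with the same 3 cured mice, and the 4 comparisons are therefore not independent.

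F3, the initiator of coagulation, was at 10.3, 9.60 and 7.89 CPM in the 3 cured mice. In untreated mice at day 35 it was at 48.5, 24.8, 58.0, 45.6 and 36.4 CPM, and in the uncured mice at 53.4 and 101.1 CPM. All libraries of both groups lay above every cured library. Anti-CTLA4 mice had 84.2, 44.2, 51.9 and 51.3 CPM of F3, and anti-PD1 mice 45.1, 51.0, 70.4, 44.8 and, in library 5, 9.81 CPM. Library 5 lay within the cured range and the other 8 libraries lay above it. The log2 fold change of F3 over cured mice was 2.18 ± 0.27 (SE) in untreated mice, 4.61-fold in mean CPM (edgeR, adjusted p = 0.000317). It was 2.63 ± 0.24 in anti-CTLA4 mice (adjusted p = 0.000106) and 3.04 ± 0.26 in uncured mice, 8.34-fold in mean CPM (adjusted p = 1.11e-05). In anti-PD1 mice it was 2.25 ± 0.55 (adjusted p = 0.0403), and 2.51 ± 0.19 without library 5 (adjusted p = 6.86e-06).

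Against the cured mice, Tfpi2 and F10 moved less than F3. Tfpi2, the Kunitz inhibitor, was at 1.74, 1.27 and 1.99 CPM in cured mice and at 5.04, 2.20, 2.58, 2.43 and 3.32 CPM in untreated mice at day 35, without overlap. Its log2 fold change of 0.88 ± 0.34 over cured mice missed the threshold in edgeR (adjusted p = 0.0559) and passed it in DESeq2 (adjusted p = 0.0362). It passed in anti-CTLA4 mice, at 1.11 ± 0.26 (adjusted p = 0.00585), and in uncured mice, at 1.55 ± 0.42 (adjusted p = 0.00946). The 2 uncured mice differed from each other in Tfpi2, at 2.73 and 7.12 CPM, and the call was lost without uncured mouse 5, the higher one (adjusted p = 0.163). In anti-PD1 mice the difference was 1.21 ± 0.41 (adjusted p = 0.0652), and 1.41 ± 0.24 without library 5 (adjusted p = 0.000695). F10, which encodes factor X, was at 3.02, 3.02 and 2.81 CPM in cured mice and ranged from 1.59 to 6.40 CPM in untreated mice at day 35, around the cured values. Its difference of 0.10 ± 0.42 did not pass (adjusted p = 0.860) and turned to −0.35 without untreated mouse 4, the mouse at 6.40 CPM. In uncured mice F10 was at 4.33 and 5.97 CPM, 0.78 ± 0.24 above cured mice (adjusted p = 0.0163), a call lost without uncured mouse 5 (0.148), without cured mouse 4 (0.0542) or with all 29 libraries in the fit (0.0806). In anti-CTLA4 mice it was at 3.14 to 5.05 CPM, above every cured mouse, with a difference of 0.46 ± 0.22 (adjusted p = 0.10).

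In the anticoagulant arm, Proc, which encodes protein C, had 0 counts in all 3 cured libraries and in anti-PD1 library 5. It was at 2.23, 1.22, 2.35, 1.91 and 2.14 CPM in untreated mice at day 35 (30 to 80 counts) and at 2.21 and 2.73 CPM in the uncured mice. Anti-CTLA4 mice had 1.20 to 1.61 CPM and the other 4 anti-PD1 mice 1.35 to 2.67 CPM. Every library of these 4 groups but anti-PD1 library 5 held Proc reads. A count of 0 allows up to 3 counts per library, or 0.148 CPM, so Proc was at least 13.3-fold higher in untreated, 16.7-fold in uncured, 9.74-fold in anti-CTLA4 and 11.6-fold in anti-PD1 mice than in cured mice. The difference passed in untreated mice (edgeR, adjusted p = 0.000199), uncured mice (7.92e-05), anti-CTLA4 mice (0.000223) and anti-PD1 mice (0.0475, and 8.77e-05 without library 5). This bound covers counting error only. Hepatocyte markers (10 genes), which mark the main source of protein C in the body, summed to 22.1 to 58.4 CPM in cured mice, with Ttr and Fgb at 0, and to 101.5 to 547.8 CPM in untreated mice at day 35. Their part in the Proc difference between groups was not tested.

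Thbd, the thrombin receptor that activates protein C, was at 91.8, 82.5 and 84.6 CPM in cured mice and at 41.1 to 77.0 CPM in untreated mice, without overlap, and at 65.9 and 55.8 CPM in uncured mice. The log2 difference of untreated from cured mice was −0.52 ± 0.21 (adjusted p = 0.0706 in edgeR and 0.0461 in DESeq2). That of uncured mice was −0.53 ± 0.10 (adjusted p = 0.00157), a call lost with all 29 libraries in the fit (0.180). Anti-PD1 mice had 91.0, 46.8, 48.1, 73.8 and, in library 5, 70.1 CPM of Thbd, and anti-CTLA4 mice 38.3, 83.1, 75.8 and 87.7 CPM. In both groups the highest values lay within the cured range. Their differences from cured mice were −0.39 ± 0.23 (adjusted p = 0.189) and −0.29 ± 0.26 (0.350) and did not pass. With libraries scaled by totals alone the Thbd difference of uncured from cured mice turned to 0.25, while the median of all genes stood at 0.84, so that its sign turned with the scaling while it stayed below the median gene under both. Endothelial markers (8 genes), which include no coagulation gene, were at 626 to 669 CPM in cured and 409 to 630 CPM in untreated mice at day 35.

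Among the genes of plasminogen activation, Plaur and Plau moved in opposite directions. Plaur, the urokinase receptor, was at 5.53, 6.67 and 4.99 CPM in cured mice. In untreated mice at day 35 it was at 33.3, 17.4, 39.7, 26.9 and 22.5 CPM, and in uncured mice at 30.3 and 49.1 CPM. No library of these groups came near the cured range. Anti-CTLA4 mice had 50.9, 23.8, 34.6 and 38.5 CPM, and anti-PD1 mice 33.2, 32.0, 47.1, 34.0 and, in library 5, 6.71 CPM of Plaur. Library 5 was just above the highest cured mouse. The log2 fold change over cured mice was 2.26 ± 0.28 in untreated mice, 4.88-fold in mean CPM (adjusted p = 0.000329), 2.67 ± 0.26 in anti-CTLA4 mice (0.000136) and 2.77 ± 0.23 in uncured mice, 6.93-fold (9.35e-06). In anti-PD1 mice it was 2.41 ± 0.55 (adjusted p = 0.0403) and 2.67 ± 0.18 without library 5 (3.77e-06).

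Plau, urokinase itself, was at 80.5, 77.2 and 69.5 CPM in cured mice, the highest group mean of the 7. Untreated mice at day 35 had 36.3, 27.6, 32.5, 36.8 and 28.2 CPM and uncured mice 34.6 and 37.4 CPM. Neither group reached the cured range. Anti-CTLA4 mice had 25.8, 47.9, 31.7 and 35.2 CPM, and anti-PD1 mice 27.3, 29.5, 33.3, 33.8 and, in library 5, 65.1 CPM. The log2 difference from cured mice was −1.25 ± 0.14 in untreated mice (adjusted p = 0.000206), −1.12 ± 0.19 in anti-CTLA4 mice (0.00152), −1.10 ± 0.10 in uncured mice (2.25e-05) and −1.01 ± 0.28 in anti-PD1 mice (0.0439), or −1.30 ± 0.10 without library 5. In mean CPM, cured mice had 2.35-fold the Plau of untreated mice. Scaled by totals alone these differences were −0.66 in untreated and −0.32 in uncured mice, and both passed the test. Plat, the tissue-type activator, was at 37.7, 35.9 and 35.3 CPM in cured mice and at 77.6, 41.8, 87.2, 57.8 and 65.8 CPM in untreated mice at day 35. Every untreated mouse was above every cured mouse, mouse 2 by a small margin. Its log2 fold change over cured mice was 0.84 ± 0.22 in untreated (adjusted p = 0.0124, and 0.0526 without cured mouse 4), 0.97 ± 0.24 in anti-PD1 (0.0403, and 1.12 ± 0.09 with 8.68e-06 without library 5), 0.71 ± 0.12 in anti-CTLA4 (0.00138) and 0.87 ± 0.16 in uncured mice (0.00106).

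**Figure D2:**
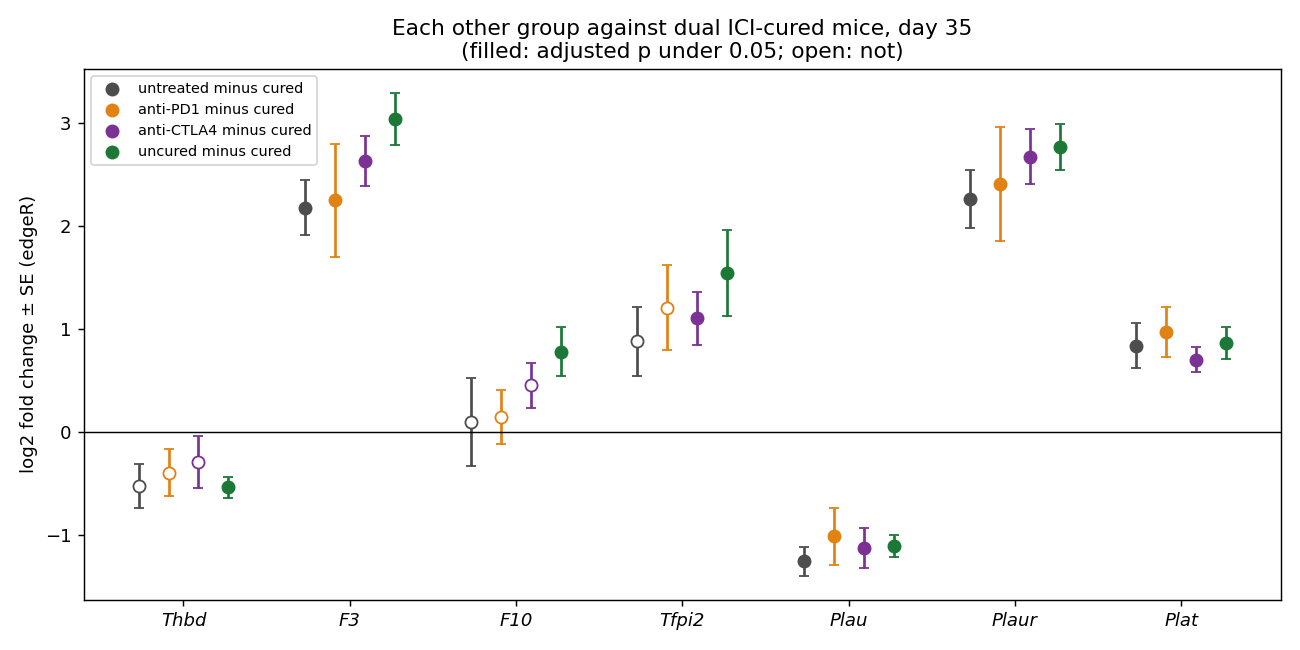
Log2 fold change ± SE (edgeR, y axis) of 7 genes (x axis) in untreated, anti-PD1, anti-CTLA4 and dual ICI-uncured mice over dual ICI-cured mice at day 35; filled points have an adjusted p under 0.05, and Proc is left out because its cured counts are 0. F3 and Plaur lie between 2.18 and 3.04, Plau between −1.25 and −1.01, and Thbd lies below 0 in all 4 comparisons. All points are under TMM scaling. With libraries scaled by totals alone, which is not drawn, Thbd was above 0 in all 4.

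The counts over the 8 genes in the other comparisons with cured mice were 5 in anti-PD1 mice, where 18.8% of all genes passed, 6 in anti-CTLA4 mice (62.5%) and 8 in uncured mice (70.0%). The split of all genes, higher and lower, was 2570 and 398, 5268 and 4517, and 5831 and 5232 in these comparisons. It became 6050 and 305, 9276 and 1619, and 10127 and 2314 with libraries scaled by totals alone. The anti-PD1 count of 5 fell to 0 when any of anti-PD1 libraries 1 to 4 or any cured library was left out, and rose to 6 when library 5 was left out.

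The ratio of Plaur to Plau counts within a library, in which no scaling enters, was 0.0687, 0.0864 and 0.0718 in the cured mice. It was 0.919, 0.630, 1.22, 0.733 and 0.797 in untreated mice at day 35, 0.876 and 1.32 in uncured mice and 0.497 to 1.98 in anti-CTLA4 mice. Receptor counts thus ranged from far below the urokinase counts to above them. In anti-PD1 mice the ratio was 1.01 to 1.42 in 4 libraries and 0.103 in library 5. At day 21 it was 0.101 to 0.615 in untreated and 0.172 to 0.550 in dual ICI mice, all above the cured mice and below every untreated mouse at day 35. The ratio of F3 to Thbd counts was 0.0933 to 0.116 in cured mice, 0.328 to 0.887 in untreated mice at day 35, 0.810 and 1.81 in uncured mice, 0.532 to 2.20 in anti-CTLA4 mice and 0.140 to 1.46 in anti-PD1 mice. At day 21 it was 0.151 to 0.518 in untreated and 0.276 to 1.90 in dual ICI mice, the latter reaching above both uncured mice. These ratios were formed after the values were seen and are given without a test.

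At day 21, F10 was the gene of the 8 that passed the test between dual ICI and untreated mice, where 0.574% of 15503 genes passed. Dual ICI mice had 4.44, 6.00, 3.94, 5.56 and 5.06 CPM of F10 and untreated mice 1.96, 2.94, 2.36, 2.18 and 2.52 CPM. The groups did not overlap, which held for 3.18% of all genes tested. The log2 fold change was 1.07 ± 0.18, 2.09-fold in mean CPM (edgeR, adjusted p = 0.0296; DESeq2, 2.44e-06), on 56 to 208 counts per library. The call was kept when untreated mouse 2 or dual ICI mouse 1 was left out and lost when any of the other 8 was left out (adjusted p from 0.0520 to 0.0938), with a log2 fold change between 1.00 and 1.16 throughout. It was also lost with totals alone (0.112) and with all 29 libraries fitted together (0.0671). Macrophage markers (9 genes) summed to 1989 to 3436 CPM in dual ICI and 1616 to 2013 CPM in untreated mice at day 21, T cell markers (5 genes in the table) to 27.3 to 57.6 and 6.77 to 15.3 CPM, and hepatocyte markers to 55.6 to 108.2 and 105.8 to 241.2 CPM. Their part in the F10 difference was not tested.

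Thbd was also separate between the groups at day 21, at 73.9, 80.3, 78.7, 44.6 and 76.8 CPM in dual ICI mice and 90.1, 156.0, 96.0, 100.3 and 91.7 CPM in untreated mice. Its log2 difference of −0.59 ± 0.20 did not pass (edgeR, adjusted p = 0.268). Endothelial markers were at 379 to 577 CPM in dual ICI and 543 to 644 CPM in untreated mice. The other 6 genes overlapped. F3 ranged from 20.4 to 84.8 CPM in dual ICI and 23.5 to 51.9 CPM in untreated mice, and Plaur from 10.0 to 25.7 and 10.1 to 24.4 CPM. Proc was at 0.165, 0.261, 0.265, 0.455 and 0.955 CPM in dual ICI mice and at 0.701, 0.426, 0.509, 1.37 and 0.445 CPM in untreated mice (4 to 44 counts), a difference of −0.68 ± 0.49 that did not pass (adjusted p = 0.699). Proc was thus detected in all 10 libraries at day 21, below every untreated mouse of day 35 in 9 of them.

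Between untreated mice of day 35 and day 21, Proc and Plaur were higher and Thbd was lower at day 35, 3 of the 8 genes, where 10.8% of 15604 genes passed the test. Proc rose from 0.690 ± 0.394 to 1.97 ± 0.449 CPM (SD, n = 5 each), a log2 difference of 1.5 ± 0.34 (adjusted p = 0.0215). Plaur rose from 15.4 ± 5.32 to 28.0 ± 8.79 CPM, by 0.86 ± 0.25 on the log2 scale (adjusted p = 0.0492). Thbd fell from 106.8 ± 27.8 to 60.9 ± 15.3 CPM, without overlap, by 0.81 ± 0.21 (adjusted p = 0.0341), and 11.2% of all genes tested did not overlap. Plau was at 51.2 ± 27.9 and 32.3 ± 4.31 CPM, and its difference of −0.67 ± 0.28 did not pass (adjusted p = 0.135). With a mouse left out, Proc was called in 5, Thbd in 3 and Plaur in 2 of 10 fits, with the same sign in every fit. The calls of all 3 were kept without untreated mouse 2 of day 35 or mouse 4 of day 21. All 3 were lost without mouse 5 of day 35 or mouse 1, 2, 3 or 5 of day 21, and Proc stayed called without mouse 1, 3 or 4 of day 35, with Thbd also called without mouse 3. Gastric epithelium markers summed to 846 to 2483 CPM at day 21 and 1155 to 3924 CPM at day 35, with 2 of 10 genes tested higher, and 3 of 7 hepatocyte markers tested were higher at day 35. Their part in these differences was not tested.

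At day 35 none of the 8 genes passed the test between treated mice and untreated mice. In the comparisons of anti-PD1, anti-CTLA4, uncured and all 5 dual ICI mice with untreated mice, 0 of 8 genes passed and 0 of all genes passed in edgeR (0% in each). At an unadjusted p under 0.05 there were 205 (1.31%), 128 (0.811%), 787 (4.87%) and 1071 (6.87%) genes, and 0, 0, 1 and 1 of the 8. DESeq2 called 18 genes in the uncured and 55 in the comparison of all dual ICI mice, none of them among the 8. In anti-PD1 mice the log2 differences ran from −0.18 ± 0.66 for Proc to 0.31 ± 0.35 for Tfpi2, and in anti-CTLA4 mice from −0.46 ± 0.25 for Proc to 0.43 ± 0.25 for F3. Without anti-PD1 library 5, Proc stood at 0.12 and Tfpi2 at 0.50. In uncured mice the difference of F3 was 0.85 ± 0.33 (adjusted p = 0.734), with an approximate 95% interval from 0.21 to 1.5, that of Plaur was 0.50 ± 0.32 (−0.12 to 1.13) and that of F10 was 0.68 ± 0.49 (−0.29 to 1.64). The intervals leave room for a doubling of F3, Plaur and F10 in the 2 uncured mice. In the group of 5 dual ICI mice Plau had the lowest p of the 8, at 0.90 ± 0.26 (edgeR, adjusted p = 0.634), with the 3 cured mice at 69.5 to 80.5 CPM and the 2 uncured mice within 34.6 to 37.4 CPM.

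Whether the effect of dual ICI in the uncured mice of day 35 differed from that in all dual ICI mice of day 21 was tested as an interaction. The day 35 mice were picked by outcome and had been given further doses, whereas the outcome of the day 21 mice is not known. Day, doses and outcome therefore cannot be told apart in this test. None of the 8 genes passed, and 0 of 16542 genes (0%) passed in edgeR (1050 at an unadjusted p under 0.05) and 1 in DESeq2. The difference of the effects was 1.02 ± 0.66 for Proc (adjusted p = 0.707) and 0.61 ± 0.56 for F3 (0.761) on the log2 scale.

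**Figure D3:**
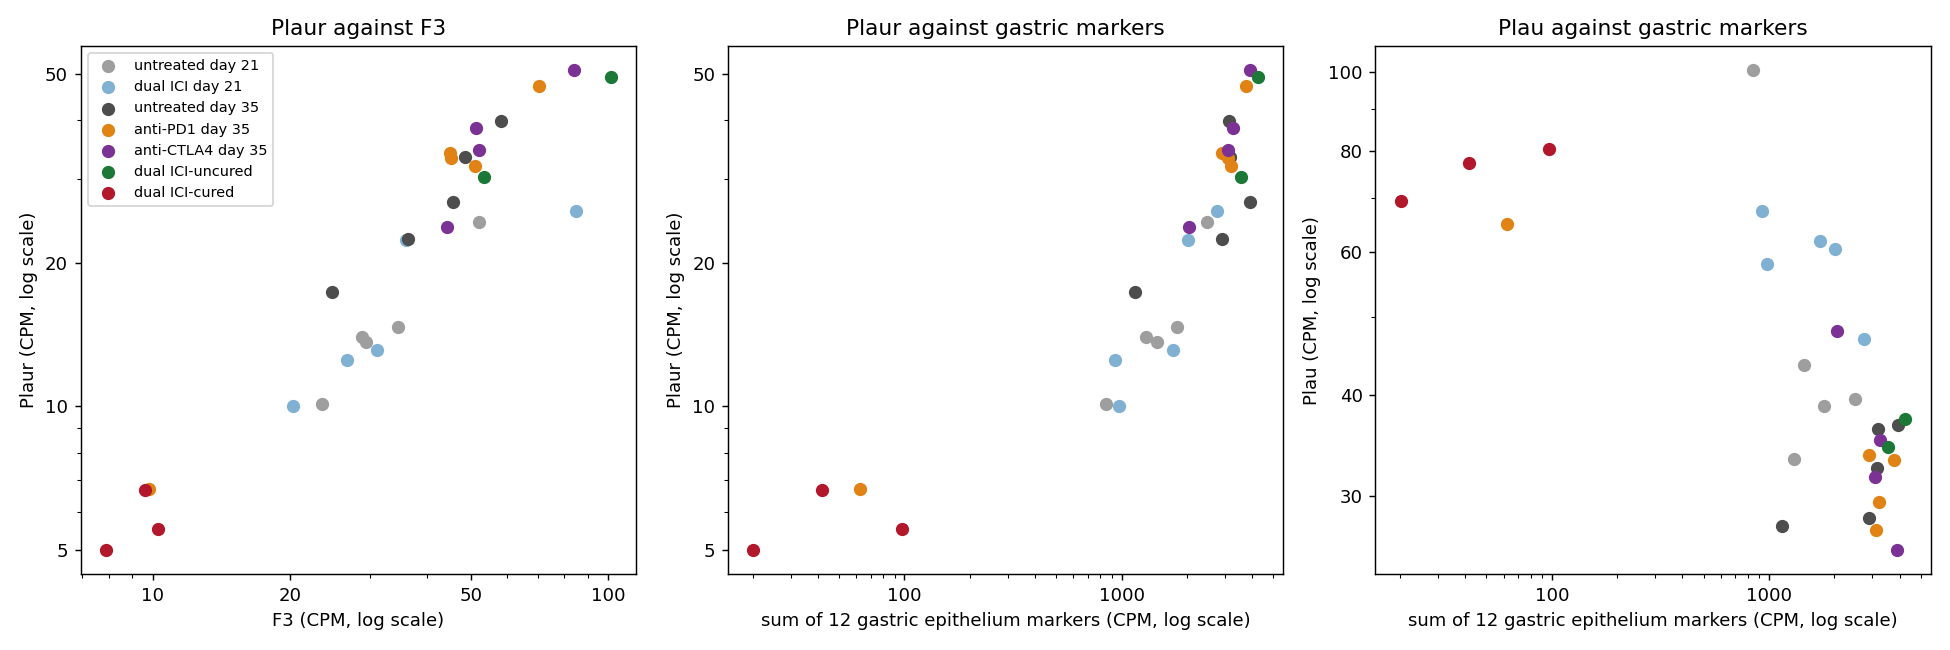
Plaur against F3, and Plaur and Plau against the sum of 12 gastric epithelium markers, in CPM on log axes, with a point for each of the 29 libraries colored by group. The 3 cured libraries and anti-PD1 library 5 lie at 7.89 to 10.3 CPM of F3 and 4.99 to 6.71 CPM of Plaur, apart from the other 25, and at 65.1 to 80.5 CPM of Plau.

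The genes also moved together within groups. Over 21 libraries (untreated and dual ICI at day 21, and untreated, anti-CTLA4 and uncured mice at day 35), log2 CPM was taken as the deviation from the group mean. F3 and Plaur had a Pearson r of 0.917, Proc and Plaur 0.796, Plaur and Plat 0.745, F3 and Tfpi2 0.743, and F3 and Plat 0.743. These 5 genes formed a set with every r at 0.495 or above. Thbd and Plau had an r of 0.642 with each other and of −0.583 and −0.344 with F3. F10 had an r between −0.0174 and 0.440 with each of the other 7. The points share the scaling of their library and the tissue composition of their mouse, and no p is given.

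Against summed marker lists over the same 21 libraries, Plaur had an r of 0.847, F3 of 0.841 and Proc of 0.740 with gastric epithelium, while hepatocyte markers gave −0.0726, −0.0621 and 0.0464. Neutrophil markers (6 genes in the table) gave 0.840 for F3, 0.804 for Tfpi2 and 0.792 for Plaur. Thbd had its highest r, 0.841, with endothelium, and F10, 0.648, with macrophages. Plau had none above 0.573, the value with platelet markers. Skeletal muscle markers gave −0.786 for F3 and −0.793 for Plaur, and the lists are shares of the same libraries. In cured mice neutrophil markers were at 7.17 to 9.20 CPM against 29.0 to 94.2 CPM in untreated mice at day 35, beside the lower F3 and Plaur.

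**Figure D4:**
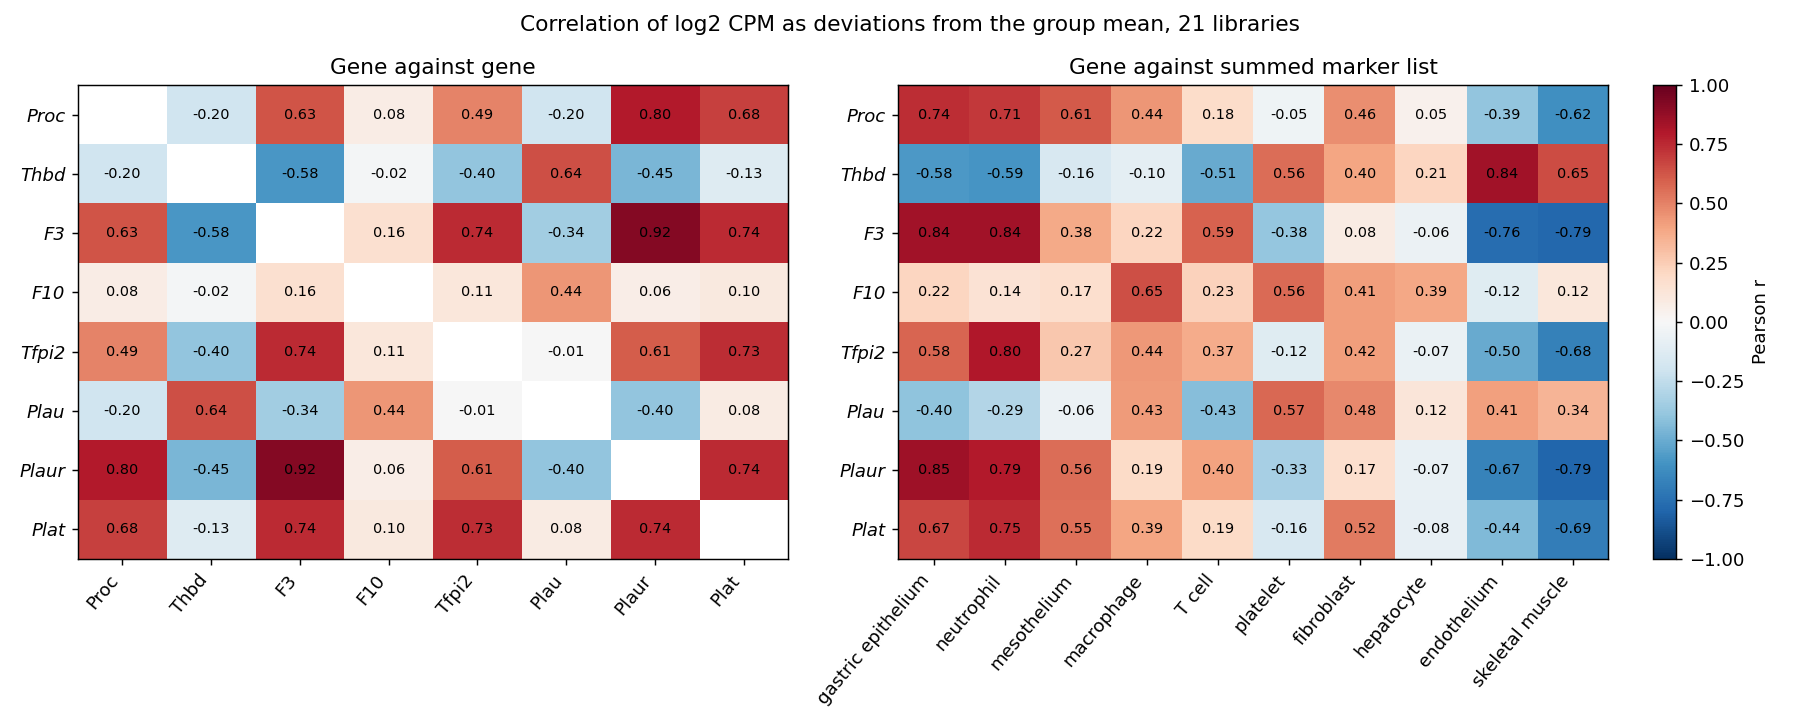
Pearson r of log2 CPM, as deviations from the group mean over 21 libraries, between the 8 genes (left) and between each gene and the log2 sum of 10 marker lists (right); the color scale runs from −1 to 1. F3 and Plaur have the highest r of the gene pairs (0.917), and Thbd follows endothelial markers (0.841).

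Among 16609 genes, the 3 most like F3 in these deviations were Cdc25b (r = 0.977), Neil3 (0.946) and Eif4a1 (0.946), and those most like Plaur were Clcf1 (0.950), Flna (0.947) and Cdca4 (0.944). Proc was most like Lrrk1 (0.890), Plekhg3 (0.889) and Pcdhgc5 (0.882), Plat most like Irf9 (0.922), Cnn3 (0.910) and Ddias (0.900), and Tfpi2 most like Snx6 (0.900), Ints9 (0.898) and Slc31a1 (0.887). Thbd was most like Ppp1r9a (0.939), Fkbp9 (0.902) and Cadm3 (0.898), F10 most like Cd52 (0.873), Gmfg (0.861) and Blvra (0.815), and Plau most like Irf4 (0.889), B3galnt1 (0.881) and Adam23 (0.874). No gene stood on the lists of 2 members.

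Other genes of the pathways were read from lists of 29 coagulation and 12 fibrinolysis genes. In untreated against cured mice at day 35, 20 coagulation genes were tested, 6 were higher and 4 lower, where 44.7% of all genes passed, 26.7% higher and 18.0% lower. Their median log2 fold change was −0.04 against 0.05 over all genes. The receptors of clotting proteases were the most abundant of those higher. F2rl1 (PAR2), which tissue factor complexes and factor Xa can activate, was at 27.4 ± 10.1 CPM against 1.73 ± 0.244 in cured mice, a log2 fold change of 3.96 ± 0.35 (adjusted p = 0.000131). F2r (PAR1), a thrombin receptor, was at 51.8 ± 19.3 against 11.9 ± 1.37 CPM (2.09 ± 0.31). F2rl3 (PAR4), another thrombin receptor, was lower, at 1.92 ± 0.760 against 4.59 ± 0.0972 CPM (−1.28 ± 0.31). The receptors of the family thus did not move one way. F7, the partner of tissue factor, was at 3.49 ± 1.58 against 0.937 ± 0.201 CPM (1.86 ± 0.45), and 5.25 CPM in uncured mice (2.45 ± 0.29). F2 (prothrombin) was at 0.377 ± 0.150 against 1.55 ± 0.297 CPM (−2.07 ± 0.39), and F13a1, the fibrin-linking transglutaminase, at 105.1 ± 22.8 against 186.4 ± 16.6 CPM (−0.85 ± 0.19). Kng1 (kininogen) and Serpina10 had 0 counts in all cured mice and were at least 5.73-fold and 2.30-fold higher in untreated mice. Serpind1 (heparin cofactor II) was lower in uncured mice, at 0.231 against 0.656 CPM, and Proz (protein Z) in anti-CTLA4 mice, at 0.565 against 1.39 CPM.

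Of the fibrinolysis genes 9 were tested in that comparison, 5 were higher and 2 lower, beside the same 44.7% of all genes, with a median of 1.22 against 0.05 over all genes. Anxa2, which with S100a10 forms a surface receptor for tPA and plasminogen, was at 469.7 ± 153.5 against 148.3 ± 38.2 CPM (1.64 ± 0.32), and S100a10 at 174.5 ± 59.3 against 72.7 ± 15.7 CPM (1.24 ± 0.28). Both subunits of this receptor were higher. Serpine2 (protease nexin 1) was lower, at 97.8 ± 19.0 against 189.8 ± 12.4 CPM (−0.97 ± 0.19), as was Serpinb2 (PAI-2), at 0.334 ± 0.215 against 1.20 ± 0.549 CPM (−1.86 ± 0.63). Both are serpin inhibitors of plasminogen activators. They are not all the listed inhibitors of this kind, and no direction of the class is read from them. Serpinb2 had at most 19 counts in an untreated and 37 in a cured library. Serpinf2 and A2m, plasmin inhibitors, were at 0.467 and 0.614 CPM in untreated mice and at 1 and 4 counts at most in a cured library.

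The same lists were read in the other comparisons. At day 21, 0 of 17 coagulation and 0 of 8 fibrinolysis genes passed, with 3 and 2 at an unadjusted p under 0.05, as were 10.7% of all genes. Between untreated mice of day 35 and day 21, 0 of 17 coagulation genes were higher and 2 were lower, where 10.8% of all genes passed. Of these 2, F13a1 fell by 1.11 ± 0.18 on the log2 scale. Ggcx, the enzyme that carboxylates vitamin K dependent clotting factors, fell by 0.59 ± 0.13. Of 9 fibrinolysis genes, 1 was higher and 0 were lower, beside the same 10.8%. Against cured mice, 2 coagulation genes were higher and 0 lower of 18 in anti-PD1 mice, where 18.8% of all genes passed, 5 and 5 of 19 in anti-CTLA4 mice (62.5%) and 5 and 4 of 19 in uncured mice (70.0%). The fibrinolysis genes were 3 higher and 0 lower of 8, 5 and 1 of 8, and 7 and 1 of 9 in the same order, beside the same 18.8%, 62.5% and 70.0% of all genes.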

How the data were processed

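The authors deposited raw counts per gene symbol and library, without normalization. Reads of 150 bp were paired and aligned to mm10 with STAR. The paper names HTSeq as the counter, whereas the submitters' processing notes name STAR 2.7.0f and featureCounts 1.6.4, and which of them made the counts is not settled. The annotation and strand setting are not given in the sources used here. From the deposited counts, fold changes were fitted by the quasi-likelihood test of edgeR 4.0.16 (R 4.3.3) on TMM factors after filterByExpr. P-values are two-sided and adjusted by Benjamini-Hochberg over every gene in the fit, with a threshold of 0.05. Libraries outside a comparison were not in its fit. DESeq2 1.42.0 was an alternative. All 8 genes passed the filter on low counts in each of the 11 comparisons. The genes, lists and tests were chosen with earlier results of these data known. From the pathway lists, the text names the 3 genes with the largest fold change in each direction that passed and did not overlap, and other genes named were chosen after their values were seen. A gene of these lists is counted but not reported by name here. Likeness was the Pearson r of log2 CPM (prior count 2) within groups. On simulated counts with 200 genes changed 4-fold, edgeR recovered 182, 150 and 185 in the designs of day 21, uncured against untreated and untreated against cured, with 7, 9 and 11 false calls on 15503, 16156 and 15816 genes. These counts had as many genes raised as lowered and no shift in tissue composition, unlike the comparisons with cured mice. Changes smaller than 4-fold were not simulated, so recovery and false calls at such sizes are not known. Replicates were separate mice, and no 2 libraries of the same group agreed within counting noise. Pairs across groups were not compared. Alternatives were other scalings, filters, a fit of all libraries, skeletal muscle genes left out, the replicate number as a block and each mouse left out in turn.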

Additional observations from a re-analysis of the deposited data

Results flagged for a closer look

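In the 5 groups of 4 or 5 mice, 40 combinations of gene and group were checked for a library whose gap to the nearest other one was large for the range of its group, by Dixon's criterion, which chance meets in about 1 in 20 groups. It was met 6 times. At day 21, dual ICI mouse 4 had 84.8 CPM of F3 against 20.4 to 35.9 CPM in the other 4 mice and, with it, 44.6 CPM of Thbd against 73.9 to 80.3 CPM. Untreated mouse 2 of day 21 had 156.0 CPM of Thbd against 90.1 to 100.3 CPM and 100.7 CPM of Plau against 33.4 to 43.6 CPM. At day 35, anti-PD1 library 5 had 65.1 CPM of Plau against 27.3 to 33.8 CPM and 39.5 CPM of Plat against 74.2 to 88.4 CPM, both on the side of the cured mice. The gastric epithelium markers of that library, at 62.3 CPM, were also on that side.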

How the results depend on the processing

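The number of the 8 genes called between dual ICI and untreated mice at day 21 was 1, and it was 0 with libraries scaled by totals alone, 0 with all 29 libraries in the fit and 0 to 1 with a mouse left out. Between untreated mice of day 35 and day 21 it was 3, and 1 with totals alone, 1 with all 29 libraries and 0 to 3 with a mouse left out. Between anti-PD1 and cured mice it was 5, and 0 to 6 with a mouse left out. With totals alone the Thbd difference from cured mice turned to 0.043 in untreated, 0.13 in anti-PD1, 0.31 in anti-CTLA4 and 0.25 in uncured mice. With a mouse left out, Proc in anti-PD1 against untreated mice ranged from −0.38 to 0.12 and F10 in untreated against cured mice from −0.35 to 0.26. Totals alone moved the median of all genes by more than 0.1 also in all dual ICI mice (to −0.22) and uncured mice (to 0.19) against untreated mice and in the interaction (to 0.14). In no comparison did every pair of mice with the same number deviate together. With the replicate number as a block, F10 in untreated against cured mice stood at −0.079, Plat there was lost (0.70, adjusted p = 0.0786 in edgeR), and the counts over the 8 genes stayed within 1.5 times, at 4 in that comparison and 7 in anti-PD1 against cured mice, with Tfpi2 and Thbd added. Uncured and cured mice share no number. Cured mice held the numbers 2 to 4, so untreated and anti-PD1 mice 1 and 5 had no partner under the block. These mice, anti-PD1 library 5 among them, then added nothing to the difference from cured mice. With 1 uncured mouse left, it is assumed to vary like the cured mice.

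Over all genes, the call of 89 genes at day 21 became 507 in DESeq2, 15 with totals alone, 209 with the block and 6 to 119 with a mouse left out. The 7067 genes of untreated against cured mice became 4016 with the block and 4491 to 9388 with a mouse left out. The 2968 genes of anti-PD1 against cured mice became 6237 in DESeq2, 6355 with totals alone, 7146 with all libraries, 9913 with the block and 0 to 10746 with a mouse left out. The 1687 genes between days became 3141 in DESeq2 and 654 to 4915 with a mouse left out. Under the block, mice without a partner of the same number added nothing to these differences, as given above. The cause of the changes was otherwise not tested. Of the alternative values of the fold changes given, 7 reversed, 79 lost and 13 gained the call and 664 did neither. Depth limits Proc most, with 4 to 100 counts where it was detected.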
